A study of Mus musculus with 25 samples.

Results

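The 9 cytosolic heat shock chaperone genes were followed in mouse prefrontal cortex: Hspa8, Hspa1a, Hspa1b, Hsp90aa1, Hsp90ab1, Hspb1, Hsph1, Dnaja1 and Dnajb1. They were chosen by symbol, and all 9 of 9 were found among the 23990 genes of the table. The study sequenced total RNA of the prefrontal cortex of wild-type C57BL/6 mice aged 10 weeks, in 25 samples: 12 females and 13 males. Its 6 groups were F-stress/vehicle, F-stress/treatment, F-CTRL, M-stress/treatment and M-CTRL, with 4 samples each, and M-stress/vehicle, with 5 samples. The stress was social defeat, and treated mice received dihydrocaffeic acid with malvidin-glucoside before and during the defeat, whereas other stressed mice received vehicle, and the CTRL groups are labelled CTRL for both stress and treatment. The 25 columns of the table carry a letter (A, B, C, E, F or G) and a number, and no label explains the letters. Letter E alone reaches number 5, so its columns were read as M-stress/vehicle replicates 1 to 5, which assumes that letters stand for groups. Names and numbers alone do not tell which of the other 5 groups each of the other 20 columns belongs to, and no column was assigned from its values. These columns are described by letter, and neither stress, treatment nor sex was compared. Nothing in the labels says that the samples came from separate mice, so the p-values below concern these samples only. Those of the chi-square tests set the spread of reads against counting error. Those of the permutation tests ask whether a pair of genes varied together over the columns.

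Cytosolic chaperones bind unfolded protein segments and keep them from aggregating. HSP70 proteins work in cycles of ATP hydrolysis that J-domain proteins start and nucleotide exchange factors end, and they pass clients such as kinases and steroid hormone receptors on to HSP90. Heat shock factor 1 raises transcription of the inducible members when unfolded protein accumulates, by binding heat shock elements, which are inverted repeats of a short unit. Hspa8 (the constitutive HSP70, which also strips clathrin from synaptic vesicles), Hsp90ab1 (the constitutive HSP90) and Dnaja1 (a J-domain protein) were taken as the 3 constitutive members. The 6 inducible members were Hspa1a and Hspa1b (the inducible HSP70 pair), Hsp90aa1 (the inducible HSP90), Hsph1 (an HSP110 that exchanges nucleotide on HSP70), Dnajb1 (a J-domain protein) and Hspb1 (a small heat shock protein that holds clients without ATP).

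RefSeq start site windows on GRCm38.p6 were at hand for 6 of the 9 genes, running from 250 bases before to 50 after a start. They are shown as a description of these genes, and their part in the levels given below was not tested. An inverted pair of heat shock units was searched for as GAANNTTC or TTCNNGAA, each of which reads the same on both strands; matches that share a unit overlap. Only exact matches inside the windows were sought, so imperfect units and elements elsewhere would be missed. Such a pair was found for 5 of the 6 genes (all but Dnajb1). Counted by window, it was in 6 of the 10 windows of these genes, which include overlapping windows of Hsph1 and the near-identical ones of Hspa1a and Hspa1b, and in 15.1% of all 32851 windows. The 250 bases before the first listed start of those 5 genes are given 5′ to 3′ on the gene's own strand, with the matched pairs in capitals.
Hspa1a, chr17:34972157-34972406, minus strand: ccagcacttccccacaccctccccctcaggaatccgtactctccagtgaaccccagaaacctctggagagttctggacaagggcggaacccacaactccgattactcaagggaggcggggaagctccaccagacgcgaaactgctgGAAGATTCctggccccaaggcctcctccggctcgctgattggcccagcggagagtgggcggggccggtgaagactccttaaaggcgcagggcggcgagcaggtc
Hspa1b, chr17:34959239-34959488, minus strand: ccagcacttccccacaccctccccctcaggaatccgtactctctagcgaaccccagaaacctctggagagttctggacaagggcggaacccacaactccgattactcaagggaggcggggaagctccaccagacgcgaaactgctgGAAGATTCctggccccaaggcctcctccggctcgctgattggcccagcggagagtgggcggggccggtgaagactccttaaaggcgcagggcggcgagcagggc
Hspb1, chr5:135887669-135887918, plus strand: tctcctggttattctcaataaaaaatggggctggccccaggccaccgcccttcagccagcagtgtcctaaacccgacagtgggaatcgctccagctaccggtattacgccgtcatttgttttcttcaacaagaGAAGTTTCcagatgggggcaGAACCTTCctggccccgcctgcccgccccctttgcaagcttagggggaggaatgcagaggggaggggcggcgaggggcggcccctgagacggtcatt
Hsph1, chr5:149636337-149636586, minus strand: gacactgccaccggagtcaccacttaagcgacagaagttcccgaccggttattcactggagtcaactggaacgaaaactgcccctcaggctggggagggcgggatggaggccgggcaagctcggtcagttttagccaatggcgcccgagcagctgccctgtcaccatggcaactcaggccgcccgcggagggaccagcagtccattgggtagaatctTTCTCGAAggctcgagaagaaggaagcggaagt
Dnaja1, chr4:40722218-40722467, plus strand: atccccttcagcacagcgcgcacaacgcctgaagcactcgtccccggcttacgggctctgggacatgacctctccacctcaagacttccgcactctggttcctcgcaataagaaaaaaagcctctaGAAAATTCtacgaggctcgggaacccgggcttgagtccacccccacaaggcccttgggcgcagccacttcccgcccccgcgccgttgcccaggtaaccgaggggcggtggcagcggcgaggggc
The pair lies 104 bases before the start in Hspa1a and Hspa1b, 33 bases before it in Hsph1 and 124 bases before it in Dnaja1. Hspb1 has 2 pairs, 117 and 97 bases before its start. A run with another unit at the same spacing after the pair occurred in Hsph1 alone of these genes, as TTCTGGAAAGTTC from 37 bases after the start (chr5:149636288-149636300, minus strand), and in 0.603% of all windows. Hspa1a and Hspa1b differed at 3 of the 250 bases shown: C44T, T47C and T249G, with positions counted from the first base shown, Hspa1a's base first. Such letter matches are descriptions and were not tied to binding in these samples.

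The transcripts of these genes are also partly alike, which bears on how their reads can be counted. Of the 50-base stretches of the Hspa1a transcripts in GENCODE M21, 66.3% also occur in other genes, 58.8% in Hspa1b. For Hspa1b the shared part was 62.3%, for Hspb1 50.1% (most of it with the pseudogene Hsp25-ps1), for Hsp90aa1 47.5% (most with the pseudogene Gm12346) and for Hspa8 39.4% (most with the pseudogene Gm15459). It was 20.6% for Dnaja1, 3.44% for Hsp90ab1, 0.412% for Dnajb1 and 0 for Hsph1. The sources used here do not give how reads that fit several genes were counted. The split between Hspa1a and Hspa1b is therefore uncertain, and their sum is given as well. If such reads were left out, the sum misses them too. Since the shared part differs between genes, the same limit falls unevenly on the levels per length and the ratios between genes given below. Dnaja1 overlaps Smu1 and Gm6297 on the opposite strand, Hspa1a overlaps Gm20481 on the opposite strand, and small nucleolar RNA genes lie within Hspa8. Whether counting used strand is not given either.

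By mean CPM, Hsp90ab1 ranked 33 among all genes of the table, Hspa8 39 and Hsp90aa1 81, whereas Hspa1b, Hspa1a and Hspb1 ranked 11280, 11659 and 11716. Levels compared between genes are CPM (reads scaled to library size) per kilobase of exon (RPKM), on a linear scale. In M-stress/vehicle the constitutive HSP90 gene Hsp90ab1 (chr17:45567775-45573271) was highest at 547 ± 33.4 RPKM (SD, n = 5). Hspa8 (chr9:40800984-40810087) stood at 330 ± 22.9 and the inducible HSP90 gene Hsp90aa1 (chr12:110690605-110702728) at 245 ± 21.2. The HSP110 gene Hsph1 (chr5:149614287-149636376) had 45.4 ± 3.45, Dnaja1 (chr4:40722150-40737149) 30.0 ± 1.9 and Dnajb1 (chr8:83608193-83612653) 14.3 ± 1.83. The lowest 3 were all inducible: Hspb1 (chr5:135887919-135889563) at 4.35 ± 1.04, Hspa1b (chr17:34956436-34959238) at 1.85 ± 0.647 and Hspa1a (chr17:34969190-34972156) at 1.28 ± 0.208.

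The same order held for the medians over all 25 columns. Within a column, Hsp90ab1 exceeded Hspa8, Hspa8 exceeded Hsp90aa1, and so on down to Hspb1, in 25 of 25 columns at each step. Hspb1 exceeded Hspa1b in 24 of 25, and Hspa1b exceeded Hspa1a in 22 of 25. Taken across columns, 4 neighbouring pairs had overlapping ranges: Hspa8 and Hsp90aa1, Hsph1 and Dnaja1, Hspb1 and Hspa1b, and Hspa1b and Hspa1a. The median step was widest between Hsp90aa1 and Hsph1 (5.80-fold per length). Thus Hsp90aa1 and Hsph1, although classed as inducible, sat among the constitutive members in level, while the inducible HSP70 pair together reached a median of 3.40 RPKM against 351 for Hspa8.

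**Figure D1:**
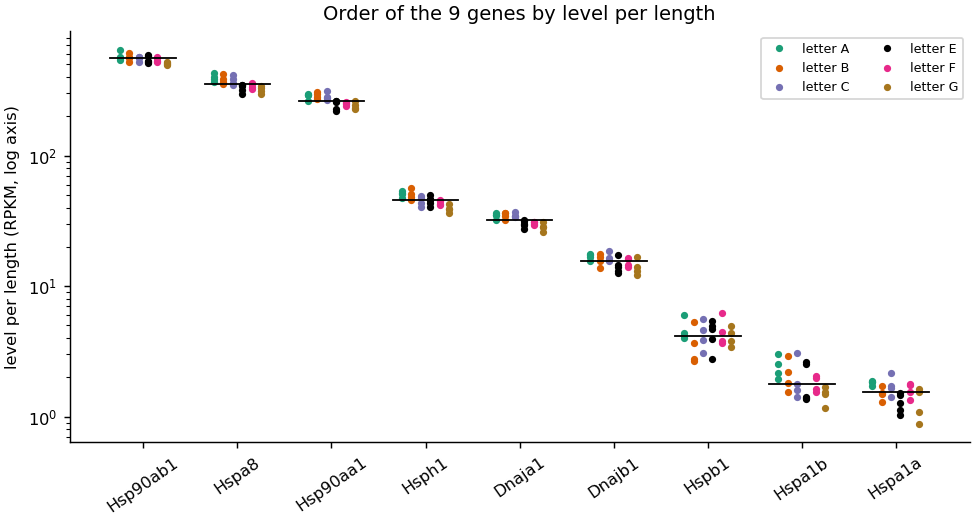
Level per length (RPKM, log axis) of each gene, ordered by its median; points are the 25 columns coloured by letter and bars are medians over all columns. The medians run from 558 for Hsp90ab1 to 1.53 for Hspa1a, and the ranges of 4 neighbouring pairs overlap.

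The 5 M-stress/vehicle columns are given one by one, in order of replicate, in CPM on a linear scale, scaled to the effective library size. Hspa8 read 1271, 1368, 1486, 1504 and 1467 CPM, a mean of 1419 ± 98.4 (SD, n = 5). Hsp90ab1 read 1527, 1606, 1731, 1575 and 1757 CPM, a mean of 1639 ± 100. Dnaja1 read 235, 254, 273, 275 and 257 CPM, a mean of 259 ± 16.4. Replicate 1 was thus the lowest of the 5 for all 3 constitutive genes, and the highest was replicate 4 for Hspa8 and Dnaja1 and replicate 5 for Hsp90ab1.

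Among the inducible genes, Hsp90aa1 read 855, 889, 1013, 1023 and 1030 CPM, a mean of 962 ± 83.1. Hsph1 read 295, 317, 340, 334 and 362 CPM, a mean of 330 ± 25.1. Replicate 1 was lowest and replicate 5 highest for both. Dnajb1, which starts the ATP cycle of HSP70, had another order: 45.1, 41.8, 40.5, 55.4 and 46.8 CPM, a mean of 45.9 ± 5.86.

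The HSP70 pair followed Dnajb1 in having replicates 2 and 3 low and replicate 4 high. Hspa1a read 4.31, 3.06, 3.36, 4.52 and 3.79 CPM, a mean of 3.81 ± 0.616. Hspa1b read 3.95, 3.87, 3.81, 7.31 and 7.06 CPM, so that replicates 4 and 5 stood apart from the other 3, with a mean of 5.20 ± 1.81. The small heat shock gene Hspb1 had its lowest value in replicate 3: 5.58, 4.86, 2.87, 5.10 and 4.02 CPM, a mean of 4.49 ± 1.07.

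These spreads were set against counting error. By a chi-square test of reads against effective library size, all 9 genes varied beyond counting error among the 5 M-stress/vehicle columns, as did 74.4% of the 19239 genes tested, so the count for the 9 genes says little about them in particular. Hspa1a had the weakest call (Benjamini-Hochberg adjusted p = 0.00667 over all genes tested), resting on 117 to 179 reads a column, and without replicate 2 its adjusted p was 0.0575. Across all 25 columns the same test called all 9 genes and 99.4% of 18899 genes. Reads behind these values ran from 53778 to 77212 a column for Hsp90ab1 and from 91 to 236 for Hspb1.

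The size of the spread was described gene by gene and by class, without a test between the classes, whose values overlap. The coefficient of variation beyond counting error over the 25 columns had a median of 11.0% over the 14452 genes that averaged 1 CPM or more, with quartiles of 7.91% and 17.1%. It was 6.50% for Hsp90ab1, 9.75% for Dnaja1 and 9.99% for Hspa8, all below that median. Of the inducible genes, Hsp90aa1 (9.85%) and Hsph1 (10.7%) were also below it, and Dnajb1 (11.3%) was close to it. Hspa1a (17.8%), Hspb1 (21.7%) and Hspa1b (28.0%) were above the upper quartile. The class medians were 9.75% for the 3 constitutive and 14.6% for the 6 inducible genes, and the least abundant 3 of the 9 genes were also the 3 most variable, so level and class cannot be told apart here. Within M-stress/vehicle alone the class medians were 6.27% and 13.3%, beside 8.22% over all genes.

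For 4 of the 5 most abundant chaperone genes, most of the variation lay between letters. The share of the sum of squares of log2 values that lay between the 6 letters was 74.2% for Dnaja1, 66.4% for Hsp90aa1, 64.3% for Hsph1 and 63.5% for Hspa8. These 4 shares stand beside a median of 32.5% over all genes and an upper quartile of 47.3%. Hspa1a had 48.0%, Hsp90ab1 42.0% and Dnajb1 39.9%. The share was 28.8% for Hspa1b and 14.0% for Hspb1, which varied mainly within letters.

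**Figure D2:**
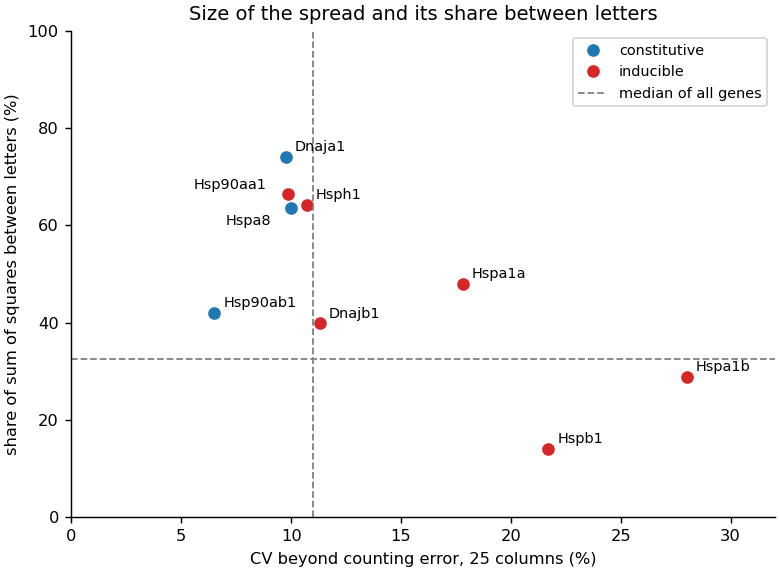
Coefficient of variation beyond counting error over 25 columns (%, x axis) against the share of the sum of squares that lies between letters (%, y axis), 1 point a gene, with dashed lines at the medians over all genes. Dnaja1, Hsp90aa1, Hsph1 and Hspa8 sit at 63.5% or more between letters with a variation of 10.7% or less, while Hspa1b and Hspb1 combine wide variation with 28.8% and 14.0%.

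Levels by letter, as lowest, median and highest CPM, show the size of these differences. Dnaja1 had 276, 304 and 311 CPM in A, 276, 304 and 316 in B and 294, 298 and 320 in C. In E it had 235, 257 and 275 CPM, in F 252, 262 and 267, and in G 224, 245 and 268. Every column of A, B and C was therefore above every column of E, F and G for Dnaja1, so that 9 of the 15 pairs of letters did not overlap. The nearest values were 275.58 CPM in A and 275.37 in E, and with median-of-ratios scaling 8 pairs were free of overlap. The highest letter median was 1.24 times the lowest.

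The inducible HSP90 gene Hsp90aa1 also had 9 such pairs, each of A, B and C above each of E, F and G. It had 1035, 1151 and 1158 CPM in A, 1066, 1136 and 1215 in B and 1054, 1095 and 1236 in C. Its values were 855, 1013 and 1030 CPM in E, 942, 991 and 1010 in F and 900, 935 and 1021 in G. The nearest values were 1035.1 CPM in A and 1029.9 in E, and 8 pairs were free of overlap when scaled to total reads and with median-of-ratios scaling. A count of 9 or more pairs was reached by 2 of the 9 genes, Dnaja1 and Hsp90aa1, and by 0.865% of the 14452 genes. That limit of 9 was set after the counts of these genes were known and nothing is read from it, since neither gene reaches it with median-of-ratios scaling. At least 1 pair did not overlap for 7 of the 9 genes and for 51.1% of all genes, which is no test of either.

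Hspa8 was ordered alike but with wider overlap: 1569, 1692 and 1850 CPM in A, 1508, 1617 and 1801 in B, and 1486, 1610 and 1771 in C. Letters E, F and G had medians of 1467, 1474 and 1378 CPM, and 6 pairs of letters did not overlap. Hsph1 had its highest median in A (370 CPM, 345 to 389) and its lowest in G (284 CPM, 263 to 311), and 3 pairs did not overlap. Hsp90ab1 was the most even of the 9 genes, with letter medians from 1516 CPM in G to 1695 in B (1.12-fold) and 2 pairs that did not overlap, both against G. It had 4 such pairs when scaled to total reads, and 4 without columns C2 and G1, which stand apart from the rest as described further on.

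For Dnajb1 no pair of letters was free of overlap, with medians from 43.2 CPM in G to 54.5 in A, but without C2 and G1 there were 2 such pairs. Hspa1a had its 4 columns of A between 5.04 and 5.57 CPM, above all of E (3.06 to 4.52) and G (2.62 to 4.82) and overlapping B, C and F. Hspa1b separated A (5.41 to 8.50 CPM) from G (3.28 to 4.73) and no other pair, and had 2 such pairs without C2 and G1. The sum of the HSP70 pair ran from 10.9 to 13.5 CPM in A and from 6.51 to 9.56 in G, with letter medians 1.53-fold apart, and 2 pairs of letters did not overlap. Hspb1 overlapped in every pair, with letter medians from 3.30 CPM in B to 4.86 in E.

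**Figure D3:**
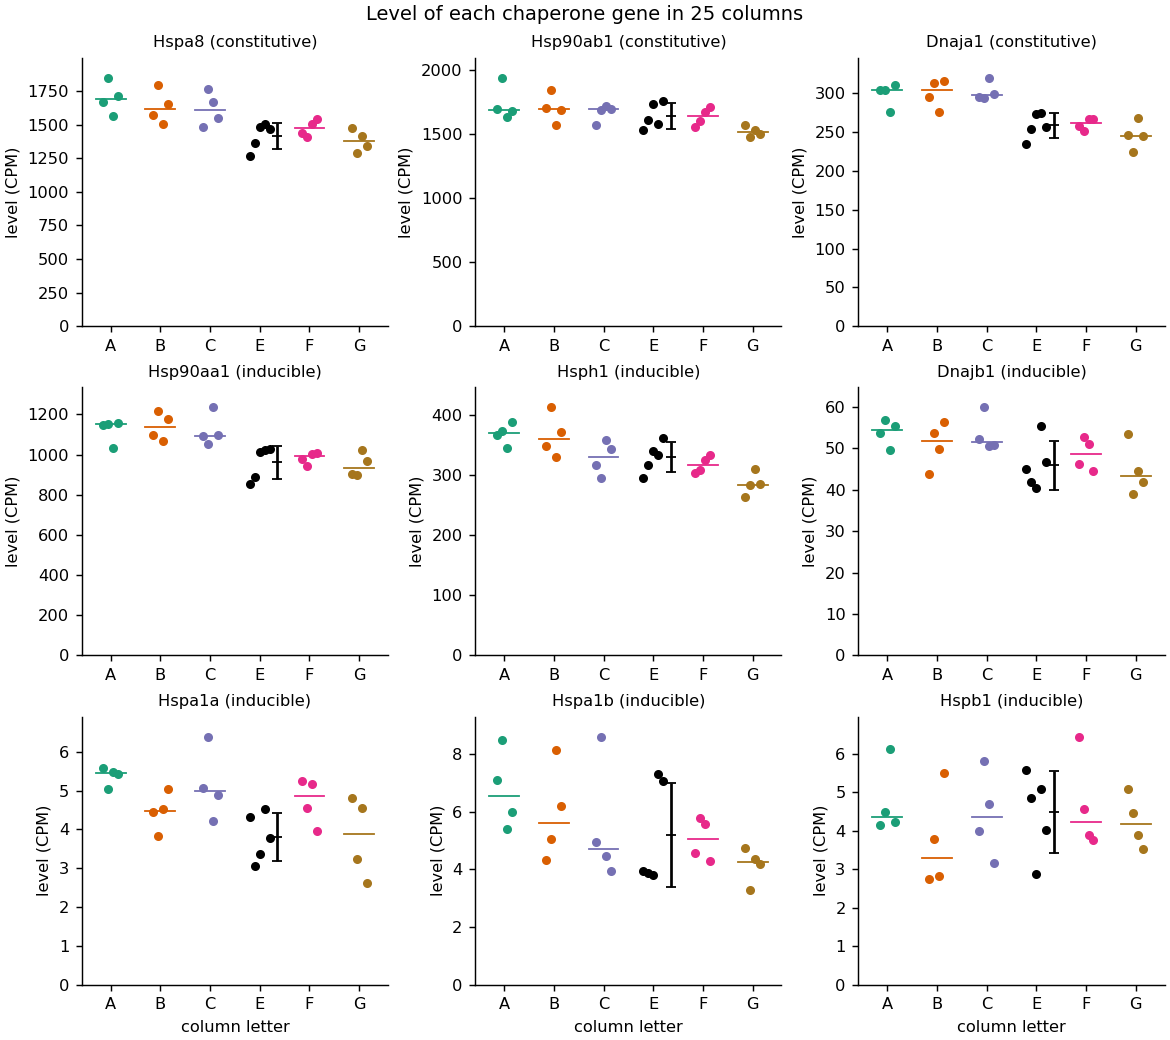
Level (CPM, linear axis from 0) of each gene in the 25 columns by letter; coloured bars are medians of 4 columns, and the error bar beside letter E is the mean ± SD of its 5 columns. Dnaja1 and Hsp90aa1 are higher in every column of A, B and C than in any column of E, F and G, by margins that another scaling removes for 1 of the 9 pairs, while Dnajb1 and Hspb1 overlap in all pairs of letters.

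Other measures of the libraries moved with the letters. Xist, of the X chromosome, had 193 to 440 CPM in the columns of A, B and C and at most 0.269 CPM in those of E, F and G. Genes of the sex chromosomes are described further under the other observations. The summed level of 6 endothelial markers was 163 to 250 CPM in the columns of A, B and C and 254 to 362 CPM in those of E, F and G, and no marker was at 0. For 6 microglia markers the sums were 229 to 277 CPM and 288 to 362 CPM, again with none at 0. Mitochondrially encoded genes took 4.69% to 5.96% of reads in A, B and C and 5.70% to 8.02% in E, F and G. Immediate early genes (17 activity-induced genes such as Egr1) summed to 1160 to 1579 CPM in A and 460 to 550 in G. These letters also had the highest and lowest medians of Hspa8, Hsp90aa1, Hsph1 and Dnajb1. The other members differed: Dnaja1 and Hsp90ab1 were highest in B, Hspa1a and Hspa1b were lowest in E, and Hspb1 was highest in E and lowest in B. The part of any of these measures in the chaperone levels was not tested. Fewer cells of a type and less RNA per cell cannot be told apart in such tissue samples. Neuronal identity was plain: excitatory markers summed to 6811 to 9407 CPM.

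Ratios within a column do not depend on library scaling. Hsp90aa1 reads were 0.553 to 0.718 of Hsp90ab1 reads, and 0.587 ± 0.0379 in M-stress/vehicle (SD, n = 5). The letter medians were 0.655 in A, 0.669 in B and 0.671 in C against 0.585 in E, 0.595 in F and 0.628 in G, and 1 of the 15 pairs (B above F) did not overlap. The HSP70 pair gave 4.83 to 8.47 reads per 1000 reads of Hspa8, with 6.33 ± 1.36 in M-stress/vehicle. All 6 inducible genes together had 0.374 to 0.447 reads per read of the 3 constitutive genes, with letter medians from 0.402 in E to 0.432 in B and C. By mean level that sum is mostly Hsp90aa1 (1043 CPM) and Hsph1 (332 CPM). Dnajb1 averaged 49.4 CPM, Hspa1b 5.42, Hspa1a 4.52 and Hspb1 4.39, so the ratio says little of these less abundant genes. The 9 genes together took 0.426% to 0.573% of a library's reads.

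The genes fell into sets that moved together between columns, a grouping described after the values were seen. Pearson's r over the 25 columns was tested by 100000 permutations for all 36 pairs, and 19 had an adjusted p under 0.05, each positive. The weakest of these had an r of 0.49, which 6.77% of all pairs of the 14452 genes reach or exceed. Among Hspa8, Hsp90ab1, Dnaja1, Hsp90aa1 and Hsph1 all 10 pairs passed, with r from 0.68 to 0.95, and 1.48% of all gene pairs have an r of 0.68 or more. Since letters can carry groups or batches, r was recomputed on deviations from the letter mean, where 8 of these 10 passed (r from 0.47 to 0.87). On that scale 8.05% of all gene pairs reach 0.47, the weakest r among these 5 genes. The weakest pair that passed had 0.57, a value that 4.23% of all gene pairs reach. The closest pair was Dnaja1 with Hsp90aa1: r was 0.95 (adjusted permutation p = 5.1e-05), Spearman's rho 0.97 (7.2e-05) and r within letters 0.87 (5.4e-04), and without the 2 columns farthest from the Dnaja1 median r was 0.94. Hsp90aa1 with Hsph1 also had 0.87 within letters (adjusted permutation p = 3.6e-04), beside 0.82 pooled with rho 0.84.

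Dnajb1, Hspa1a and Hspa1b formed another set. All 3 of their pairs passed over 25 columns, and 2 passed within letters. Dnajb1 with Hspa1b had an r of 0.77 (adjusted permutation p = 1.6e-04), a rho of 0.81 (1.2e-04), 0.74 within letters (0.00117) and 0.70 without the 2 farthest columns. Dnajb1 with Hspa1a had 0.76 (adjusted permutation p = 5.1e-05), a rho of 0.66 (0.00141), 0.62 within letters (0.0340) and 0.70 without the 2 farthest columns. The 2 HSP70 genes with each other had 0.57 (adjusted permutation p = 0.00603) with a rho of 0.59 (0.00561), and 0.46 within letters, which did not pass (0.0826).

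Between the set of 5 and the set of 3, 6 of 15 pairs passed over 25 columns and none within letters, where r ran from -0.35 to 0.51 and 1 pair, Hspa8 with Dnajb1, had an unadjusted permutation p under 0.05 (0.0223). Whether a pair within a set correlates more closely than a pair between sets was not tested as such. Hspb1 passed with none of the other 8 genes, pooled or within letters, with r from -0.23 to 0.36 pooled. Without adjustment its permutation p was under 0.05 in 1 case, with Hspa1a within letters (0.0376), and in none by Spearman's rho. Hsp90aa1 and Hsph1 thus passed with the constitutive genes within letters in 5 of their 6 pairs with them and with none of the other inducible genes apart from each other.

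**Figure D4:**
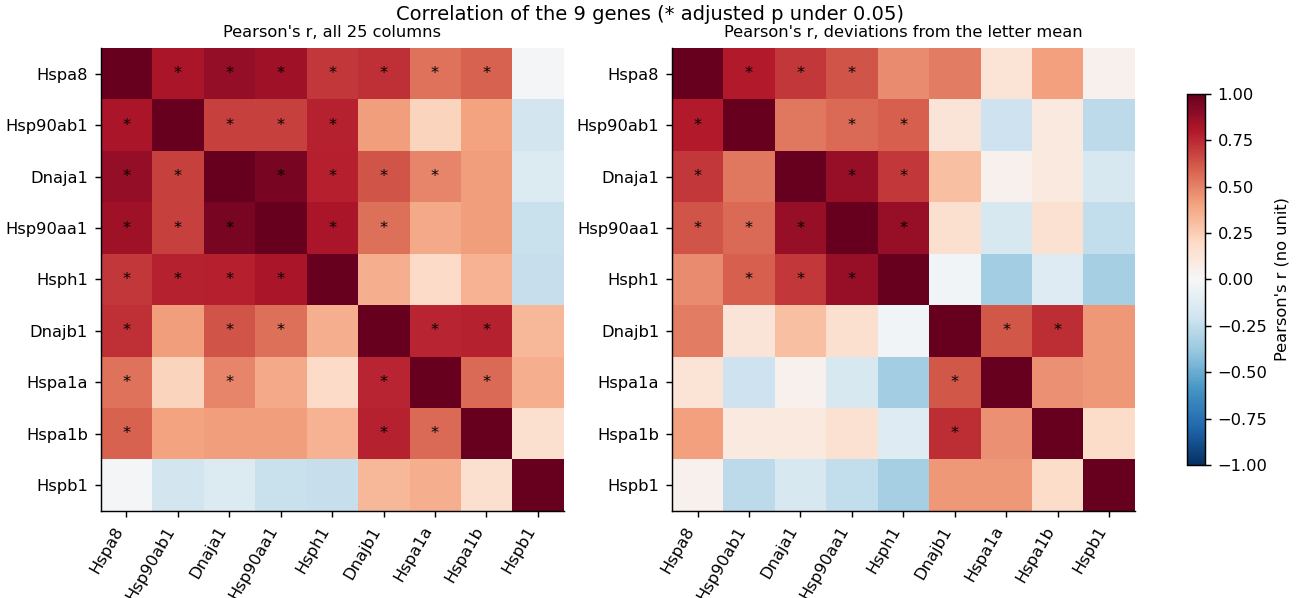
Pearson's r (colour, no unit) for the 36 pairs of genes over 25 columns (left) and on deviations from the letter mean (right), with stars at an adjusted permutation p under 0.05. There are 19 starred pairs on the left and 10 on the right. Those on the right all lie within a block of 5 abundant genes or a block of Dnajb1, Hspa1a and Hspa1b. On the left 6 lie between these blocks.

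Columns C2 and G1 stood apart from the rest in overall expression, with scores of 0.58 and 0.56 on the second principal component, against -0.29 to 0.15 in the other columns. Column C2 was the highest of all for Dnajb1 (59.9 CPM), Hspa1a (6.39 CPM) and Hspa1b (8.61 CPM), and G1 was the lowest for Hsph1 (263 CPM). Without both columns 22 pairs passed pooled, with all 19 of the original pairs among them, and 10 passed within letters.

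The genes of the whole table whose order over the 25 columns was most like each member, by Spearman's rho among 14404 named genes, included other chaperone genes in a few cases. Dnaja1 was most like Hsp90aa1 (0.97), then Hspa4 (0.96), an HSP110 gene that is not among the 9, and Kifap3 (0.95). Hsp90aa1 was most like Dnaja1, then Cul2 (0.96) and Kifap3 (0.95). Other genes were often closer to these members than another chaperone gene was, as Hsp90ab1 came in place 1447 in likeness to Dnaja1 and in place 1238 to Hsp90aa1. Hspa8 was most like Tuba4a, Uba1 and Psmd2 (0.93 each), of which Tuba4a alone was also among its first 3 by Pearson's r. They encode a tubulin, a ubiquitin-activating enzyme and a proteasome subunit. Hsp90ab1 followed Amph (0.89), Ldha (0.87) and Add1 (0.83), and Hsph1 followed Lipg (0.90), Neurod6 (0.89) and Adgra1 (0.88). Neurod6, a transcription factor of excitatory neurons, ran from 79.9 to 123 CPM.

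Dnajb1 was most like Rnd1 (0.86), Tspan13 (0.85) and Grasp (0.84), and Hspa1b like Txndc15 (0.83), Dnajb1 (0.81) and Rgs2 (0.79). Hspa1a had weaker likenesses, to Trp53rka (0.78), the J-domain gene Dnajc21 (0.74) and Ier3 (0.73), none of which was among its first 3 by Pearson's r. Hspb1 was most like Acta2 (0.80), the smooth muscle actin of vessel walls, then Anapc10 (0.75) and Foxc1 (0.74). None of these 3 has a mean of 10 CPM. The rhos are descriptions over columns that share their libraries and letters.

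Hspb1 was set beside markers of vessel walls and meninges, which include its closest gene, Acta2. Its highest 5 columns were F1 (6.45 CPM), A3 (6.13), C2 (5.82), E1 (5.58) and B4 (5.51). The summed level of 8 mural and meningeal markers was 176 CPM in F1, 174 in A3, 149 in C2, 134 in E1 and 193 in B4, beside a range of 89.0 to 193 and a median of 126 over all columns. By mean level Rgs5 was the largest part of the sum, at 83.7 CPM, beside 26.3 for Igf2 and 3.49 for Acta2. In B1, the lowest for Hspb1 at 2.75 CPM, the sum was 89.0. Hspb1 and the sum were both above their medians in 8 columns and both not above in 9. They went apart in 8 columns: 4 had Hspb1 alone above, and 4 (F4, E5, A1 and F3, with sums of 130 to 138 CPM and Hspb1 at 3.76 to 4.16 CPM) had the markers alone above. The defining markers were present in all columns, Acta2 at 1.24 to 10.7 CPM and Rgs5 at 62.5 to 117 CPM, and the part of these cells in the Hspb1 level was not tested.

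**Figure D5:**
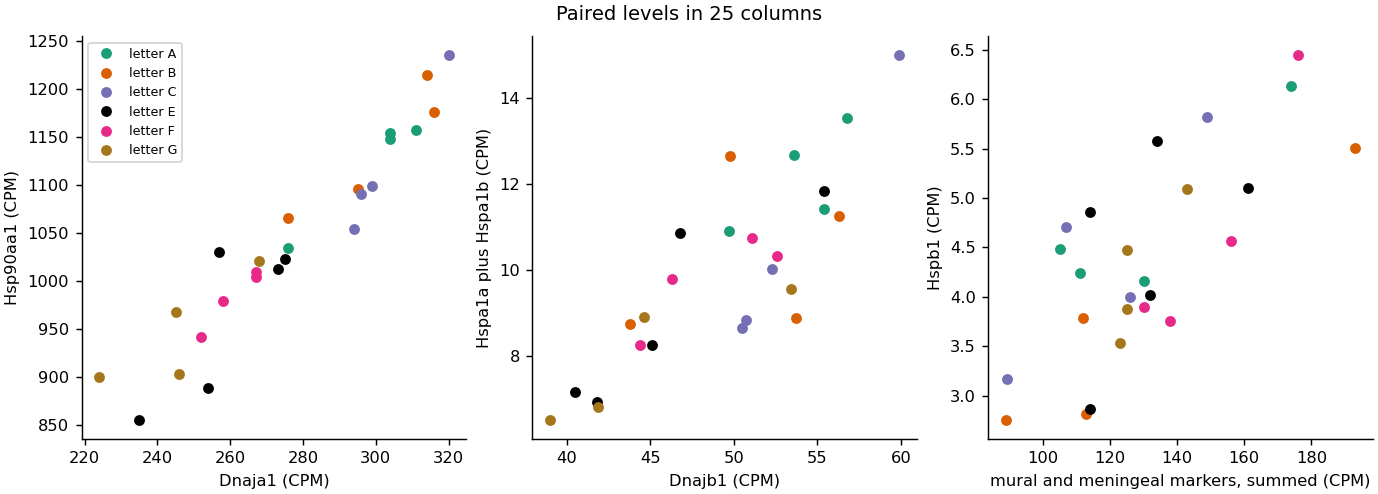
Levels (CPM, linear axes) in the 25 columns, coloured by letter: Dnaja1 against Hsp90aa1, Dnajb1 against the sum of Hspa1a and Hspa1b, and the summed mural and meningeal markers against Hspb1. Dnaja1 and Hsp90aa1 rise together. Dnaja1 is lowest in G2 (224 CPM) and Hsp90aa1 in E1 (855 CPM), and both are highest in C3 (320 and 1236 CPM). The column with 59.9 CPM of Dnajb1 is also the one with the highest HSP70 sum, 15.0 CPM.

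Other genes of the chaperone system were described by the same counts, to be read against the 51.1% of all genes with at least 1 pair of letters without overlap. Of a list of 7 other HSP70 and HSP110 genes in the table, not all of them cytosolic, 4 had a pair of letters without overlap and none had 9. Hspa4 was the most abundant, at 208 to 304 CPM, with its highest letter median in B and its lowest in G (1.27-fold). Hspa12b had the widest range, 6.29 to 12.9 CPM. Its highest letter median was in G and its lowest in C (1.68-fold), and 6 pairs of letters did not overlap. Of 18 other J-domain genes 11 had such a pair, with a median letter fold of 1.12. Dnajc5, the J-domain protein of synaptic vesicles, was the most abundant at 361 to 512 CPM, and Dnajc21 had the widest range, 18.0 to 47.9 CPM.

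Of 14 HSP90 co-chaperone genes 4 had a pair of letters without overlap, and the most abundant, Cdc37, which brings kinases to HSP90, ran from 119 to 153 CPM. Chordc1, with the widest range of that list, ran from 36.1 to 59.8 CPM with 8 pairs that did not overlap and, like Hspa8 and Hsp90aa1, with A highest and G lowest. Of 10 exchange and adaptor genes of HSP70 8 had such a pair, of which Bag6 was the most abundant (241 to 309 CPM) and Bag2 had the widest range (4.87 to 7.77 CPM).

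Heat shock factor genes gave 2 of the 4 with at least 1 CPM. Hsbp1, a binding partner of the factors, ran from 174 to 227 CPM and Hsf4 from 14.9 to 23.3 CPM, each without a pair of letters free of overlap. Of the chaperonin and prefoldin genes 9 of 14 had such a pair, with Cct7, a chaperonin subunit, at 143 to 192 CPM and Pfdn1 at 34.7 to 50.5 CPM. Another subunit, Tcp1, singled out after its values were seen, was the 1 gene of these lists of partners with 9 pairs, at 97.0 to 131 CPM. The counterparts in other compartments gave 8 of 12. Among them the mitochondrial HSP70 gene Hspa9 ran from 173 to 228 CPM, and Hspa5, the HSP70 of the endoplasmic reticulum, from 152 to 241 CPM with 8 pairs, A highest and G lowest. Of the other small heat shock genes 3 of 5 with at least 1 CPM had such a pair. Cryab, which oligodendrocytes also express, ran from 35.1 to 103 CPM with every pair overlapping, and Hspb3 from 0.578 to 2.70 CPM.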

How the data were processed

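Total RNA libraries of 25 prefrontal cortex samples were used as 1 table of all samples. The authors deposited log2 values. Per the submitters' processing notes, builds were mm10 and GRCm38, and edgeR, STAR 2.6.1d, featureCounts, Subread 1.6.3 and SAMtools 1.9 were among the tools. The strand setting, the annotation release and any gene filter were not given in the sources used here. From the values themselves, each is log2 of reads plus 0.5 as CPM of an effective library size, and where a column's minimum stands for 0 reads, 100% of values came out whole within 1e-06 reads. A column's summed reads were multiplied by 0.951 to 1.04 to reach its effective size.

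Reads and CPM came from undoing that log2 transformation, with scipy 1.17.1, pandas 2.3.3 and numpy 2.4.6 in Python 3.11.15, and figures from matplotlib 3.10.9. For RPKM, CPM was divided by the length of the union of a gene's exons (GENCODE M21, GRCm38). The same annotation gave gene coordinates and symbols (23846 of 23990 matched). Libraries held 32614304 to 44265039 reads, so that 3 reads were 0.0673 to 0.0906 CPM. No column was taken for a duplicate, since any 2 of them differed in 4374 genes or more by a test of counting error. Reads may repeat molecules, and the chi-square tests cover counting error only. Those tests ran on genes averaging 5 reads or more (4 and 24 degrees of freedom), with Benjamini-Hochberg adjustment and a threshold of 0.05.

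The tests were checked on simulated data. For genes made with a coefficient of variation of 20%, the chi-square test recovered 66.3% in the M-stress/vehicle columns and 81.0% in all 25. At 50% it recovered 78.6% and 97.0%. Unchanged genes called numbered 3 and 7. Correlations used two-sided permutation tests, adjusted over 36 pairs, where 1.0e-05 is the smallest unadjusted p they can give. The genes named include the 9 members and the 3 genes most like each member. Of each list of chaperone partners, the most abundant and the widest-ranging gene with a mean of at least 1 CPM were named. Those of the cell type marker lists are mostly not given, and a few others, such as Tcp1 and Hsf1, were named beside these. The 9 genes, the lists and the classes were chosen with earlier results of these data known. Alternatives covered scaling, filters, leaving out columns, transcript length, Spearman's rho and deviations from letter means. No comparison between groups was made, since 20 columns could not each be tied to 1 group.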

Additional observations from a re-analysis of the deposited data

Results flagged for a closer look

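Of 66 sets of 4 or 5 values (the 9 genes, the HSP90 ratio and the HSP70 sum, in each letter), 2 held a column far from the others by Dixon's test, where chance gives about 1 in 20, or 3.30. Both were column A3. Its Hsp90aa1 level of 1035 CPM lay below the other 3 columns of A, at 1148 to 1158 CPM. Its Hspb1 level of 6.13 CPM lay above the other 3, at 4.16 to 4.48 CPM. The summed mural and meningeal markers were 174 CPM in A3 and 105 to 130 CPM in the other columns of A. Their part in either value was not tested.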

How the results depend on the processing

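The counts of genes beyond counting error changed by less than 1.5 times under every alternative run, from 12646 to 13125 with 1 M-stress/vehicle column left out (14308 with all 5), and all 9 genes kept their call except Hspa1a without replicate 2. Of the 36 pairs, 19 passed under either other scaling, by Spearman's rho, without letter E and without the 2 farthest columns, 15 without letter A and 22 without columns C2 and G1. On deviations from the letter mean 10 passed, and 10 again when C2 and G1 were also left out, where the letter means are removed by construction. Genes with 9 or more pairs of letters without overlap numbered 125, and 246 without C2 and G1 (1.70% of genes), where fewer columns have to be separated. Dnaja1 kept 9 pairs when scaled to total reads and had 8 with median-of-ratios scaling. Hsp90aa1 had 8 under both, Hspa8 had 9 and 5 in place of 6, and Hsp90ab1 had 4 in place of 2 when scaled to total reads and again without C2 and G1, which gave 2 for Dnajb1 (0 with all columns) and 2 for Hspa1b (1 with all). Dividing by the longest transcript instead of the union of exons raised Dnaja1 from 30.0 to 46.0 RPKM and Hsph1 from 45.4 to 69.2 RPKM. Of 180 recomputed values and counts for single genes, those just named included, 167 stayed within the tolerance set for them (1 SD between columns, a jackknife error for shares between letters, 1.5 times for counts). Scaling to total reads shifted columns by -0.0750 to 0.0579 on the log2 scale, which limits what can be said of letters whose nearest values lie closer than that, as for Dnaja1 and Hsp90aa1. No paired analysis was possible because the columns of the 5 groups that share replicate numbers are not tied to a group. The alternatives without C2 and G1, without letter A and without the 2 farthest columns, and all those on pairs of letters except scaling to total reads and the 10 CPM filter for the count of genes with any such pair, were chosen after seeing the data.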

Other observations

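Genes of the sex chromosomes followed the same letters as Dnaja1 and Hsp90aa1. Xist ran from 193 to 440 CPM in the 12 columns of A, B and C and reached at most 0.269 CPM in the 13 columns of E, F and G. Ddx3y, on the Y chromosome, reached at most 0.239 CPM in A, B and C and ran from 39.5 to 53.8 CPM in E, F and G. These are values only: no column was assigned to a sex or group from them, and no difference in chaperone level was tested against them.

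Of the 17 immediate early genes 16 had a pair of letters without overlap and 4 had 9 or more. Egr1 ran from 124 to 449 CPM and Egr2 from 0.281 to 12.5 CPM, each with its highest median in A and its lowest in G. Oligodendrocyte markers summed to 1098 to 4802 CPM, astrocyte markers to 3666 to 6264 CPM and blood markers to 59.6 to 193 CPM, and inhibitory neuron markers to 839 to 1114 CPM.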
